A study of Mus musculus with 6 samples.

Results

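Proteasome subunit genes were examined in the livers of mice that received esculetin or vehicle. The members were the protein-coding genes whose mouse symbols follow the pattern of the 20S core subunits (Psma and Psmb), the 19S cap subunits and cap assembly chaperones (Psmc and Psmd) and the proteasome activators (Psme), each followed by a number. This name rule used no measured value, and it gave 44 members among the 55357 genes of the count table.

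The proteasome is the protease that degrades proteins tagged with ubiquitin. Its barrel, the 20S core, is a stack of outer alpha rings and inner beta rings in which a few beta subunits carry the proteolytic sites. The 19S cap recognises ubiquitin, unfolds the substrate with a ring of ATPases and feeds it into the core. In cells exposed to interferon, the 3 catalytic beta subunits of newly made cores are replaced by the immunoproteasome subunits Psmb8, Psmb9 and Psmb10, and the activator PA28, made of Psme1 and Psme2, can replace the cap. Such proteasomes are known for making peptides for presentation on MHC class I.

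Esculetin is a coumarin derivative that was given to study lipid clearance after fat-rich meals, and the liver libraries address which hepatic transcripts differ under it. All animals were wild-type (WT) C57BL6/J males, 8 to 9 weeks old, that were gavaged daily for 7 days. They ate a control diet with 10% of its kcal as fat for 4 days, followed by 3 days on a high-fat diet (HFD) with 60%. The vehicle group received 2.5% Tween-80, and the esculetin group received esculetin at a dose that the sample names and the protocol give as 180 mg/kg/d and the treatment field as 90 mg/kg/d. Both groups ate the HFD, so no group kept on the control diet enters the comparison. Each group had 3 libraries, and each library held liver RNA of a pair of mice.

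Between 27957713 and 34920922 reads were counted per library, and all 3 esculetin libraries had more reads than any of the vehicle group. At these depths 3 counts equal 0.0865 to 0.109 CPM, the unit of level used here, which divides a gene's counts by the library total after TMM normalisation. Genes were compared with edgeR's quasi-likelihood test on the counts of 14433 genes that passed a filter on low counts, and p-values were adjusted by the Benjamini-Hochberg method over all of them. The p-values measure the spread between these libraries. Summed over 5 hepatocyte markers, including albumin, the level was 75420.1 to 78124 CPM with vehicle and 70893 to 78751 with esculetin, so hepatocyte transcripts were abundant in every library. Of these markers, Apoc3 alone had an unadjusted p under 0.05, with a log2 fold change of 0.36 in edgeR. In bulk liver, fewer cells of a type and less RNA per cell cannot be told apart.

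To show the regulatory sequence for which proteasome genes are best known, the promoters of the members were searched for the core of the antioxidant response element, TGACNNNGC. NRF1, encoded by Nfe2l1, binds this type of element with small MAF proteins and drives proteasome genes when proteasome activity is low. In the 250 bases upstream of the canonical start, read from GRCm39, 6 of 44 members held the motif on either strand (13.6%), and so did 9.67% of 21627 protein-coding promoters. Among the 12590 of these promoters whose genes were tested, the share was 10.6%. The 6 stretches are printed 5′ to 3′ on the strand of the gene with the motif in capitals. In Psmc6, Psmd12 and Psmd7 it lies on the opposite strand and reads as GCNNNGTCA. They cover chr14:54855482-54855514 (minus strand) at Psmb5, chr11:70416159-70416182 (plus) at Psmb6, chr14:45567039-45567077 (plus) at Psmc6, chr11:107370092-107370130 (plus) at Psmd12, chr8:108315199-108315237 (minus) at Psmd7 and chr5:123366207-123366245 (plus) at Psmd9.
Psmb5: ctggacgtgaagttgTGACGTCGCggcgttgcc
Psmb6: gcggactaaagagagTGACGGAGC
Psmc6: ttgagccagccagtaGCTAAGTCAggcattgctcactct
Psmd12: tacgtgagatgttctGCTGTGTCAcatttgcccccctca
Psmd7: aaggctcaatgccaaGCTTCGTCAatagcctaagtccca
Psmd9: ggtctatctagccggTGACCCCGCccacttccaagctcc
These 6 members encode a catalytic core subunit each (Psmb5 and Psmb6), a cap ATPase (Psmc6), subunits of the cap lid (Psmd12 and Psmd7) and a chaperone of cap assembly (Psmd9). Their log2 fold changes between esculetin and vehicle were 0.21, 0.09, 0.01, 0.01, 0.04 and 0.16 in the order printed. A match is a description of the letters and not evidence of binding.

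Nearly all of the proteasome was transcribed at moderate to high levels in these livers, in both groups. Of the 44 members, 43 passed the filter, and all of these except Psma8 had a mean of 12.8 to 167 CPM over the 6 libraries and at least 334 counts in each. The member left out was Psmb11, the catalytic subunit of the thymoproteasome, which had 1 count in 1 esculetin library and 0 in every other library. Psma8, an alpha subunit known from male germ cells, was the other tissue-restricted member and had 22 to 48 counts per library.

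Per kilobase of canonical transcript, the 14 constitutive core subunits spanned 11.1 (Psmb2) to 105 (Psma6) CPM per kb with vehicle, a 9.46-fold range with a median of 56.8. Psmb2 is a structural subunit of the beta ring and Psma6 belongs to the alpha ring. The 17 cap subunits spanned 22.6 (Psmd14) to 66.0 (Psmc3) CPM per kb, a 2.92-fold range with a median of 46.8. Psmd14 is the deubiquitinase of the lid and Psmc3 is an ATPase of the base. The proteins of these genes form complexes of fixed composition, whereas the levels per length differed between members of the same ring. Canonical lengths set part of this order, since they run from 774 bases in Psmb3 to 6002 in Psmb1. With the union of all annotated exons in place of the canonical transcript, a length added after the values were seen, Psmb2 and Psma6 were again the lowest and highest core subunits, and the highest cap subunit was Psmc1.

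**Figure D1:**
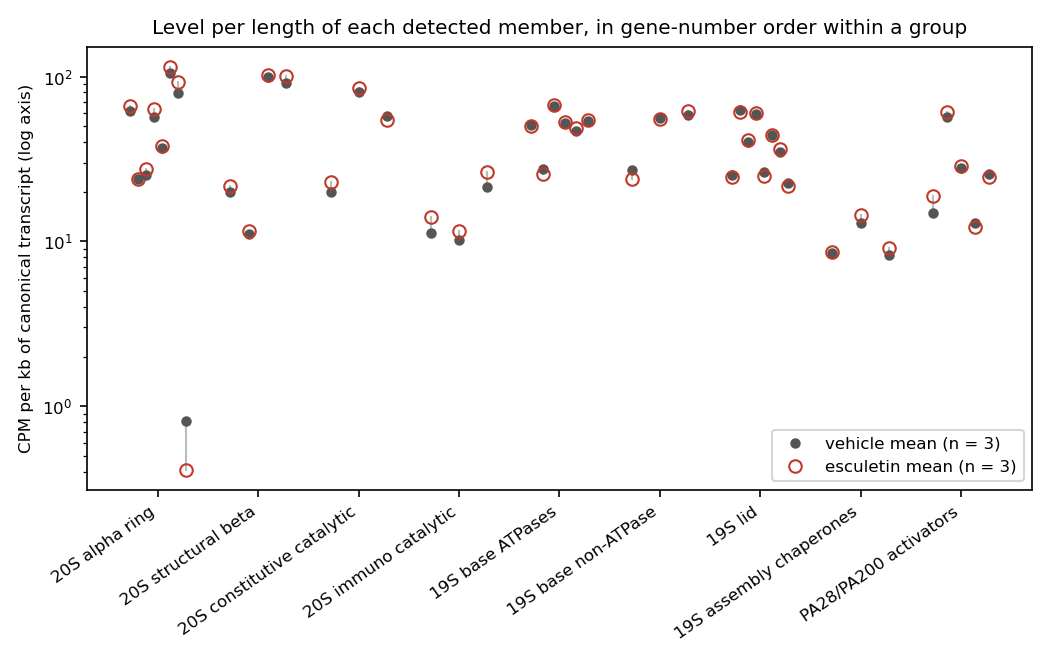
Mean level of each detected member in CPM per kilobase of canonical transcript on a log axis, grouped by role and in gene-number order within a group. Filled points are vehicle means and open circles are esculetin means (n = 3 each). The 2 means of a member lie close together throughout, except in Psma8 at 0.81 and 0.412.

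Proteasome transcripts differed by small amounts between esculetin and vehicle livers. None of the members passed the test across all genes (0 of 43 with an adjusted p under 0.05, where 0.0416% of all genes tested passed), and the smallest adjusted p was 0.159. Without adjustment, 5 members had a p under 0.05 with a higher level in the esculetin group, Psme1, Psmb8, Psma7, Psmb10 and Psmb5. They are 11.6% of the members tested, and 6.53% of all genes met the same criterion. One member, Psma8, had an unadjusted p under 0.05 with a lower level, which is 2.33% of the members against 5.32% of all genes. Psma8 was also the only member past the thresholds stated in the study's methods, a p under 0.05 and a fold change over 1.5, which 3.13% of all genes passed.

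The members were measured with little error. The median standard error of their log2 fold changes was 0.077, against 0.15 over all genes tested. Apart from Psma8, the fold changes lay between -0.18 and 0.36 on the log2 scale. In 42 of 43 members the whole 95% confidence interval of the difference lay within a 1.5-fold change, and in 25 it lay within a 1.2-fold change. These intervals are not adjusted for the number of genes.

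**Figure D2:**
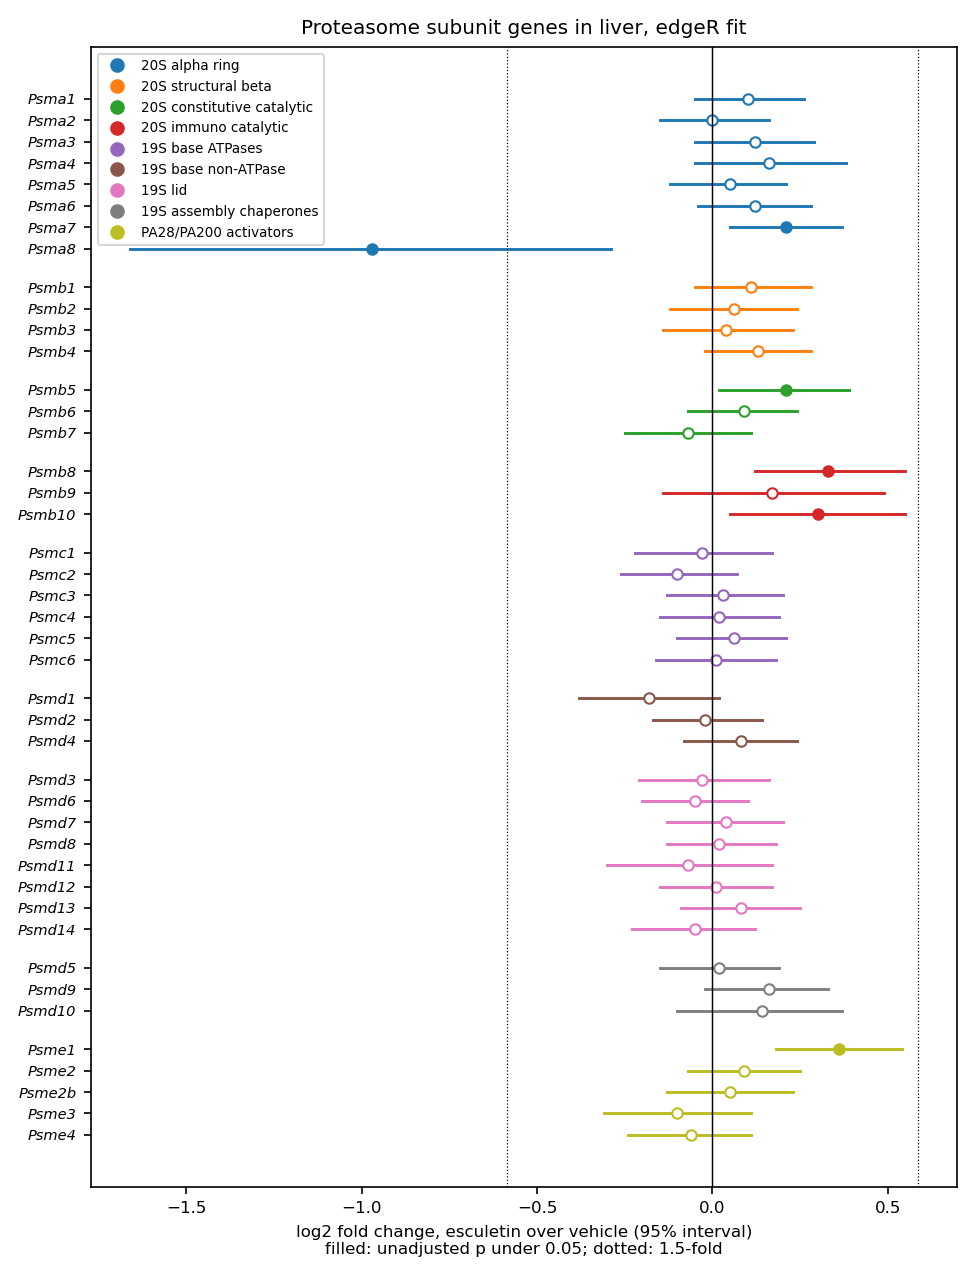
Log2 fold change (esculetin over vehicle) of the 43 members tested, with the 95% confidence interval of edgeR's fit, grouped by role. Filled points have an unadjusted p under 0.05 and dotted lines mark a 1.5-fold change. Every interval other than that of Psma8 lies between -0.38 and 0.55.

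Small differences lay more often on the higher side with esculetin. Point estimates were above 0 in 31 of 43 members (72.1%), and in 48.5% of all genes tested. With scaling by total counts these shares were 60.5% and 44.3%. The esculetin libraries lay above all vehicle libraries in 11 members (25.6%, against 9.20% of all genes), which were Psma1, Psma6, Psma7, Psmb4, Psmb5, Psmb6, Psmb8, Psmd9, Psmd10, Psme1 and Psme2. They lay below all vehicle libraries in 2 members, Psma8 and the lid subunit Psmd6 (4.65%, against 8.24% of all genes). The median log2 fold change of the members was 0.05, beside a median of -0.01 over all genes. After a correction for transcript length and GC content, chosen after seeing the data, both medians were 0.02, and 67.4% of the members and 53.5% of all genes were above 0.

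Within the particle, core and cap differed in these descriptive values. Of the 14 constitutive 20S subunits (without Psma8), 13 had a point estimate above 0, with a median log2 fold change of 0.11, or 7.8%. Of the 17 subunits of the 19S cap, 9 were above 0, with a median of 0.01, but with scaling by total counts 6 were above 0 and the median was -0.02. The cap median was also -0.02 without vehicle replicate 3 (6 above 0) and without esculetin replicate 3 (7 above 0). The core had 12 above 0 and a median of 0.09 with scaling by total counts. All esculetin libraries lay above all vehicle libraries in 6 of the 14 core subunits and in 0 of these 17 cap subunits, beside 9.20% of all genes. Sem1, a small lid subunit outside the name rule, was without overlap in that direction. Averaged over its 14 genes and expressed relative to the vehicle mean of each gene, the core stood at 0.01, 0.00 and -0.01 in the vehicle libraries and at 0.10, 0.06 and 0.13 in the esculetin libraries on the log2 scale. The cap stood at 0.03, 0.00 and -0.03 with vehicle and at -0.04, 0.00 and 0.01 with esculetin. The groups did not overlap for the core and overlapped for the cap. No test was made over either list. The median canonical transcript was 1386 bases in the core subunits, 1989 in the cap subunits and 3128 over all genes tested. After the same correction, the medians were 0.09 for the core and -0.01 for the cap, beside 0.02 over all genes.

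**Figure D3:**
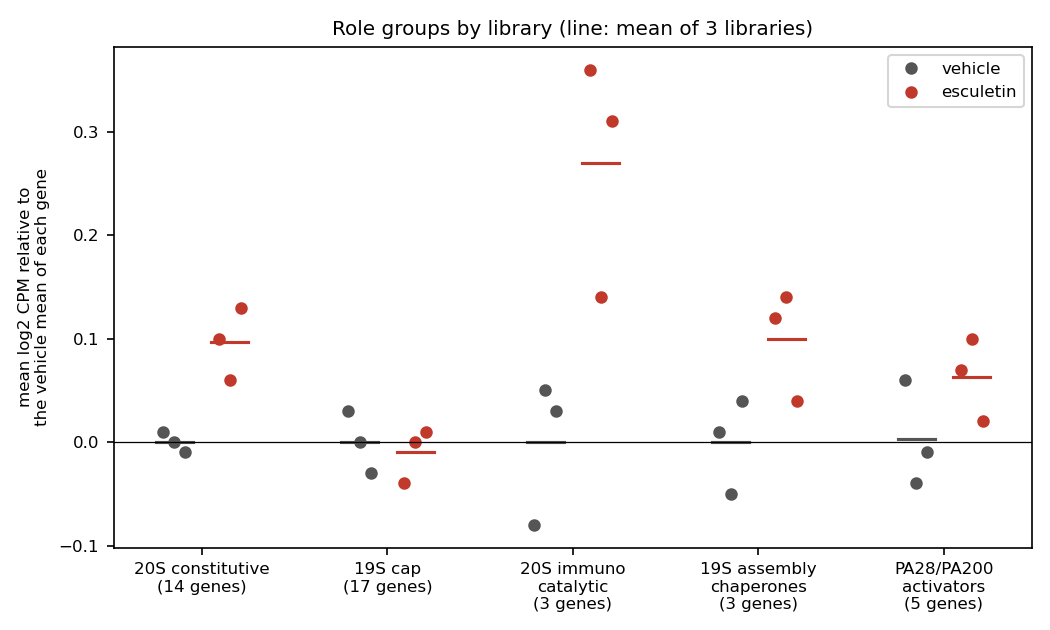
Mean log2 CPM of 5 role groups in each library, relative to the vehicle mean of each gene, with horizontal lines at the mean of 3 libraries. The esculetin libraries lie at 0.06 to 0.13 in the constitutive 20S core (without Psma8), at -0.04 to 0.01 in the 19S cap and at 0.14 to 0.36 in the immunoproteasome subunits.

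The alpha ring forms the gate of the core. Its 7 broadly expressed members had log2 fold changes between 0.00 (Psma2) and 0.21 (Psma7). Psma7 stood at 77.8, 75.0 and 72.4 CPM in the vehicle libraries and at 89.6, 83.1 and 88.0 in the esculetin libraries. All esculetin libraries were above all vehicle libraries, and the log2 fold change was 0.21 (standard error 0.072, unadjusted p = 0.0157, adjusted p = 0.301). Without vehicle replicate 3 its unadjusted p was 0.0521, and after the correction for transcript length and GC content it was 0.0574. Psma6, the alpha subunit with the highest level per length, had 109 ± 3.30 CPM with vehicle and 119 ± 4.18 under esculetin (mean ± SD of n = 3 libraries), also without overlap.

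Psma8 is the germ-cell counterpart of Psma7 and was the member with the largest difference. It had 46, 48 and 31 counts in the vehicle libraries and 22, 27 and 22 in the deeper esculetin libraries, which is 1.57, 1.47 and 1.13 CPM against 0.684, 0.778 and 0.657. Every esculetin library was below every vehicle library. The log2 fold change was -0.97 (standard error 0.31, unadjusted p = 0.0101, adjusted p = 0.265), with a 95% interval from -1.66 to -0.29. Its level was below that of Psma7 by a wide margin in both groups, at 0.81 against 79.5 CPM per kb with vehicle. The transcripts of the pair align with 75.2% identity over 761 bases, with a longest identical run of 17 bases.

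The structural beta subunits, Psmb1 to Psmb4, hold the inner rings together without a proteolytic site. All 4 had point estimates above 0, with a median log2 fold change of 0.09 and none with an unadjusted p under 0.05. Psmb4 had the smallest p of this group (log2 fold change 0.13, unadjusted p = 0.0900), at 109 ± 2.13 CPM with vehicle and 119 ± 0.621 under esculetin (n = 3 libraries, ± SD).

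The 3 constitutive catalytic subunits had no common direction. Psmb5 carries the chymotrypsin-like site, Psmb6 the caspase-like site and Psmb7 the trypsin-like site. Psmb5 stood at 32.3, 34.9 and 34.4 CPM with vehicle and at 36.7, 41.3 and 39.3 with esculetin. Its groups did not overlap, and the log2 fold change was 0.21 (standard error 0.081, unadjusted p = 0.0308, adjusted p = 0.367). The unadjusted p of Psmb5 was 0.103 without vehicle replicate 1, 0.115 without esculetin replicate 2 and 0.0525 without esculetin replicate 3. It was 0.0511 with DESeq2, 0.0565 with scaling by total counts and 0.0501 after the correction for transcript length and GC content.

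Psmb6 stood at 83.0, 81.9 and 84.6 CPM with vehicle and at 86.1, 87.1 and 92.0 with esculetin. These groups did not overlap either, yet the difference was small (log2 fold change 0.09, unadjusted p = 0.238). It was 0.04 (unadjusted p = 0.586 from edgeR) after the correction for transcript length and GC content. Psmb7 stood at 64.0, 66.8 and 68.1 CPM with vehicle and at 58.7, 62.4 and 68.4 with esculetin. Its groups overlapped (log2 fold change -0.07, unadjusted p = 0.401), with -0.02 without esculetin replicate 1 and -0.13 without esculetin replicate 3.

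The immunoproteasome subunits had the largest median of the role groups, a log2 fold change of 0.30 over its 3 tested members, or 23.0%. Psmb8, the counterpart of Psmb5, stood at 18.1, 18.1 and 20.9 CPM with vehicle and at 22.8, 23.8 and 25.3 with esculetin. The lowest esculetin library exceeded the highest vehicle library, and the log2 fold change was 0.33 (standard error 0.097, unadjusted p = 0.00667, adjusted p = 0.242). Its unadjusted p remained under 0.05 in each of the 15 alternative fits.

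Psmb10, the counterpart of Psmb7, stood at 26.9, 26.9 and 30.3 CPM with vehicle and at 38.9, 29.7 and 34.9 with esculetin. Here esculetin replicate 2 lay below the highest vehicle library, so the groups overlapped. The log2 fold change was 0.30 (standard error 0.11, unadjusted p = 0.0225, adjusted p = 0.337). Leaving out vehicle replicate 1, vehicle replicate 2 or esculetin replicate 1 gave an unadjusted p of 0.0664, 0.0696 or 0.0963, and the log2 fold change without esculetin replicate 1 was 0.20.

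Psmb9, the counterpart of Psmb6, was the immunoproteasome subunit whose log2 fold change had the largest standard error. It stood at 12.6, 16.4 and 12.2 CPM with vehicle and at 17.3, 13.7 and 15.5 with esculetin. Its groups overlapped (log2 fold change 0.17, standard error 0.14, unadjusted p = 0.252). Leaving out 1 library moved the log2 fold change between 0.09 (without vehicle replicate 3 or esculetin replicate 1, unadjusted p = 0.549 and 0.58) and 0.32 (without vehicle replicate 2, unadjusted p = 0.0415), and it was 0.11 without vehicle replicate 1. Psmb9 shares 743 exon bases on the opposite strand with Tap1, the peptide transporter gene, whose log2 fold change was -0.01.

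**Figure D4:**
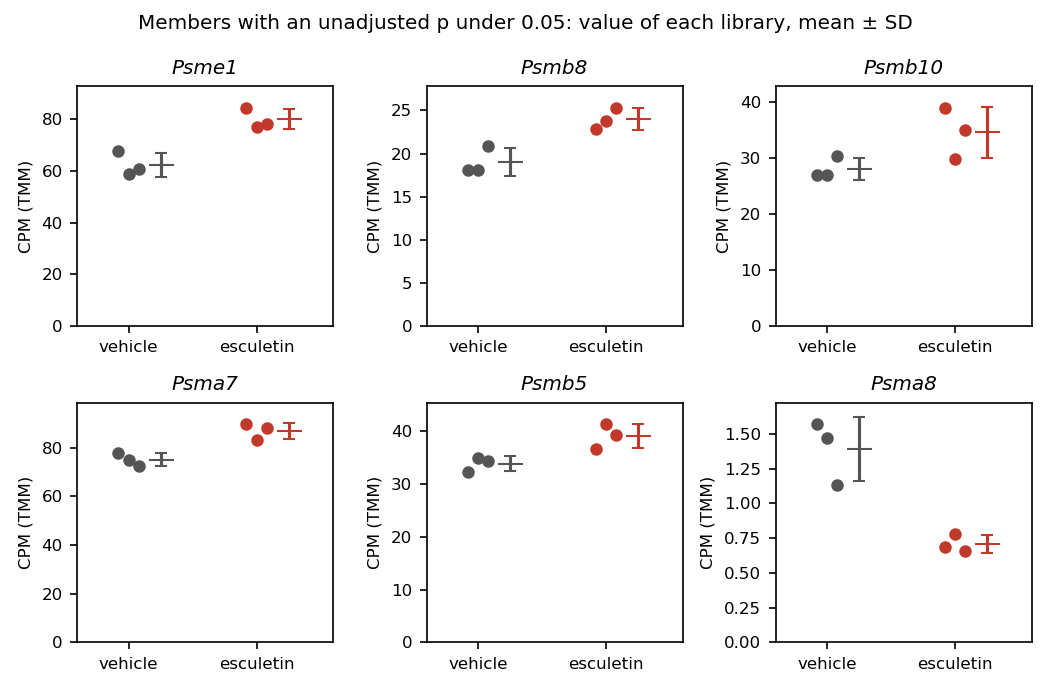
Level of the 6 members with an unadjusted p under 0.05, in TMM-normalised CPM on axes that start at 0, with 1 point for each library and the mean ± SD beside it (n = 3). The groups do not overlap in 5 of the 6 panels, and in Psmb10 esculetin replicate 2 at 29.7 lies below vehicle replicate 3 at 30.3.

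Each immunoproteasome subunit takes the place of 1 constitutive subunit, and the ratio of the pair is a measure of their balance in RNA. Per kilobase of canonical transcript, constitutive transcripts were in excess in every library and every pair. This depended on the length used. With the union of all annotated exons, mean Psmb10 exceeded mean Psmb7, at 16.2 against 11.0 CPM per kb with vehicle and 19.9 against 10.5 with esculetin. Psmb8 and Psmb9 stayed below their counterparts with that length. With the canonical length, the ratio of Psmb10 to Psmb7 was 0.371, 0.356 and 0.394 with vehicle and 0.586, 0.421 and 0.451 with esculetin. All esculetin libraries were above all vehicle libraries, by 0.37 on the log2 scale between the means and by 0.22 without esculetin replicate 1. The annotated exons of Psmb7 share 2817 bases with Nek6 on the opposite strand. The part of shared reads in this ratio was not tested. The ratio of Psmb8 to Psmb5 was 0.562 ± 0.045 with vehicle and 0.614 ± 0.035 with esculetin, and that of Psmb9 to Psmb6 was 0.127 ± 0.023 and 0.135 ± 0.017 (n = 3 libraries, ± SD). Both of these overlapped between the groups. The difference of the Psmb9 to Psmb6 ratio was 0.09 on the log2 scale, and ranged from -0.01 without esculetin replicate 1 to 0.24 without vehicle replicate 2. Per kilobase of canonical transcript, the immunoproteasome share of the 6 catalytic subunits was 20.8%, 21.6% and 21.7% in the vehicle libraries. In the esculetin libraries it was 26.4%, 22.4% and 23.7%. These shares are combinations of members and were not tested.

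**Figure D5:**
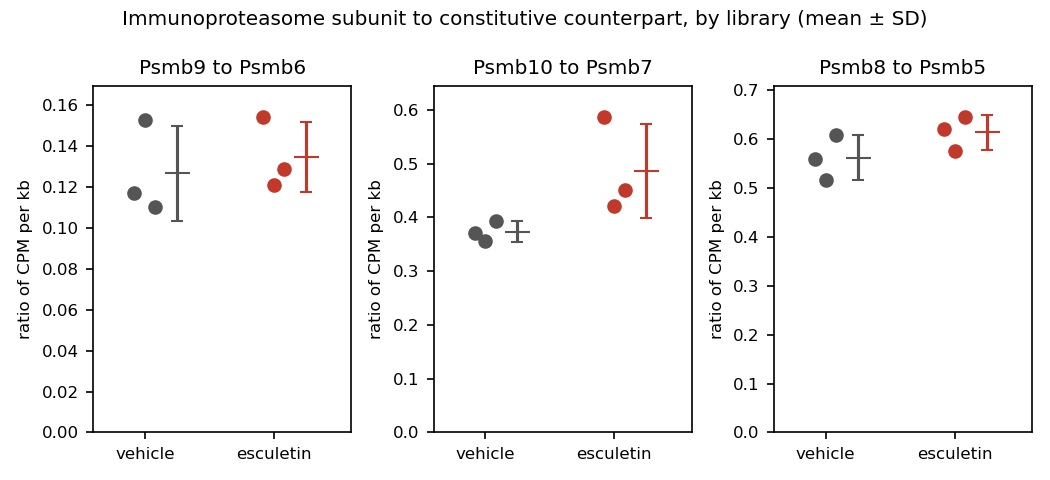
Ratio of each immunoproteasome subunit to the constitutive subunit it replaces, in CPM per kilobase of canonical transcript. Values are shown by library and as mean ± SD (n = 3), on axes that start at 0. Psmb10 to Psmb7 is the pair without overlap between the groups, and all ratios are below 1 with this length.

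Immunoproteasome subunits are abundant in immune cells, so markers of these cells were set beside them. The summed level of 11 leukocyte markers was 46.4 to 54.8 CPM with vehicle and 39.1 to 62.3 with esculetin. The largest part of this sum was H2-Aa, at 27.6 to 33.8 CPM with vehicle and 23.9 to 46.0 with esculetin. The median log2 fold change of the 10 leukocyte markers tested was -0.32. The summed level of 7 macrophage markers was 237 to 310.3 CPM with vehicle and 234 to 261 with esculetin. Ptprc, the pan-leukocyte marker CD45, was at 13.4 ± 0.705 CPM with vehicle and 10.9 ± 0.521 with esculetin, and the macrophage marker Cd68 at 9.16 ± 1.12 and 7.08 ± 0.295 (n = 3 libraries, ± SD). Both had lower point estimates with esculetin (log2 fold changes -0.30 and -0.37, unadjusted p = 0.0201 and 0.0225 from edgeR). In the same lists, C1qa (0.15), H2-Aa (0.18) and Ms4a1 (0.31) had point estimates above 0 without an unadjusted p under 0.05. The B cell marker Cd79a had a higher point estimate (1.12, unadjusted p = 0.0422), at a mean under 1 CPM in both groups. The T cell marker Cd3e was too low to be tested. The summed levels of endothelial markers (143 to 179 CPM with vehicle, 154 to 177 with esculetin) and of stellate cell markers (261 to 321 and 239 to 314) overlapped, and none of their genes had an unadjusted p under 0.05. Cholangiocyte markers summed to 4.80 to 5.03 CPM and 4.96 to 6.62, also with none. The blood and adipose list summed to 34.1 to 56.9 CPM and 35.3 to 91.6, and its adipocyte genes Adipoq and Plin1 were near 0 in every library, while Cfd had an unadjusted p of 0.0397 (log2 fold change 1.72) at a mean under 1 CPM. The part of these cell types in the immunoproteasome values was not tested.

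The 19S base holds the ring of ATPases that unfolds substrates. The 6 ATPases, Psmc1 to Psmc6, had log2 fold changes between -0.10 and 0.06, and their intervals lay between -0.26 and 0.21. Psmc2 had the smallest p of these (log2 fold change -0.10, unadjusted p = 0.214). Psmc3, the one with the highest level per length, was at 108 ± 6.30 CPM with vehicle and 110.5 ± 2.51 under esculetin (n = 3 libraries, ± SD). None of the 6 had an unadjusted p under 0.05.

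Among the other base subunits, Psmd1 is the largest scaffold of the cap, and Psmd2 and Psmd4 bind ubiquitin or its shuttle proteins. Psmd1 stood at 94.2, 92.2 and 85.4 CPM with vehicle and at 71.4, 86.6 and 81.8 with esculetin. Its groups overlapped, and its log2 fold change of -0.18 (standard error 0.089, unadjusted p = 0.0692) was the lowest in the cap. The log2 fold change was -0.24 without esculetin replicate 2 (unadjusted p = 0.0365) and -0.11 without esculetin replicate 1 (unadjusted p = 0.252). Psmd2 was one of the members with the highest CPM and differed little, at 168 ± 2.49 with vehicle and 166 ± 5.24 under esculetin (n = 3 libraries, ± SD).

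The lid removes ubiquitin chains before degradation. Its 8 tested subunits had log2 fold changes between -0.07 and 0.08, with 4 above 0. Psmd13 had the smallest p (log2 fold change 0.08, unadjusted p = 0.342), with 0.03 without esculetin replicate 1 and 0.12 without esculetin replicate 3. Psmd14, which cleaves the chains, was at 55.2 ± 3.81 CPM with vehicle and 53.2 ± 2.15 under esculetin (n = 3 libraries, ± SD).

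The chaperones of base assembly, Psmd5, Psmd9 and Psmd10, carry subunit names but leave the particle before it is finished. Their log2 fold changes were 0.02, 0.16 and 0.14, and all esculetin libraries were above all vehicle libraries in Psmd9 and Psmd10. Psmd9 had the smallest p of the 3 (standard error 0.079, unadjusted p = 0.0774). They were transcribed at 8.25 to 13.0 CPM per kb with vehicle, below each of the 17 cap subunits.

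Among the activators, the PA28 alpha subunit Psme1 had the smallest p of all members. It stood at 67.6, 59.0 and 60.6 CPM in the vehicle libraries and at 84.5, 77.2 and 78.4 in the esculetin libraries. All esculetin libraries were above all vehicle libraries, and the log2 fold change was 0.36 (standard error 0.081, unadjusted p = 0.00139, adjusted p = 0.159), which is a 28.2% higher level with a 95% interval of 1.13 to 1.45-fold. Its adjusted p was 0.0322 with DESeq2 and 0.0169 with edgeR when low-count genes were kept, so Psme1 passed the test under these settings. More genes passed there in general, 193 of 14433 with DESeq2 and 477 of 24638 without the filter, against 6 of 14433 in the main test. Over all 15 alternatives its adjusted p ranged up to 0.492. The annotated exons of Psme1 share 2192 bases with Emc9 on the opposite strand, and whether reads were counted by strand is not given in the sources used here. Emc9 was at 12.1 ± 1.62 CPM with vehicle and 15.5 ± 1.97 under esculetin (n = 3 libraries, ± SD), a log2 fold change of 0.35 (unadjusted p = 0.0279 from edgeR). The part of shared reads in the value of Psme1 was not tested.

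Psme2, the PA28 beta subunit that assembles with Psme1, stood at 54.7, 53.5 and 56.1 CPM with vehicle and at 60.9, 57.6 and 56.6 with esculetin. These groups did not overlap, with a log2 fold change of 0.09 (unadjusted p = 0.224). After the correction for transcript length and GC content, Psme2 had a log2 fold change of 0.04 (unadjusted p = 0.558 from edgeR). Its single-exon copy Psme2b aligned to it with 99.4% identity over 795 bases, so reads of this pair could be divided between them by the counting and both values are uncertain. Psme2b was at 23.1 ± 0.514 and 23.9 ± 0.606 CPM (n = 3 libraries, ± SD). The nuclear activator Psme3 and the PA200 activator Psme4 had log2 fold changes of -0.10 (unadjusted p = 0.326) and -0.06 (unadjusted p = 0.442), and their groups overlapped. When 1 library was left out, Psme3 ranged from -0.18 (without esculetin replicate 2) to -0.03 (without esculetin replicate 3), and Psme4 from -0.10 (without vehicle replicate 2) to -0.02 (without esculetin replicate 1).

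Genes that work with the proteasome but fall outside the name rule were read from the same fit. Of 39 such genes, 8 had an unadjusted p under 0.05 with a higher level in the esculetin group and 0 with a lower level, where 6.53% and 5.32% of all genes tested met these criteria, and 0 passed after adjustment. Of 6 genes for core assembly and inhibition, 1 was among the 8, the inhibitor Psmf1 (log2 fold change 0.22, unadjusted p = 0.0499). Pomp, the chaperone that completes the core, was at 124 ± 3.02 CPM with vehicle and 135 ± 5.25 with esculetin (unadjusted p = 0.131 from edgeR, n = 3 libraries). Of 6 proteins bound to the cap, 1 was among them, the small lid subunit Sem1 (log2 fold change 0.21, unadjusted p = 0.0154), while the ubiquitin receptor Adrm1 had a log2 fold change of -0.02. None of the 5 genes for transcriptional control was among them. Nfe2l1 itself was at 95.2 ± 5.96 CPM with vehicle and 97.6 ± 3.13 with esculetin (n = 3 libraries), a log2 fold change of 0.04.

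Of 12 ubiquitin and shuttle genes, 2 were among the 8, and 1 of them is described here. Rps27a, which encodes ubiquitin fused to a ribosomal protein, stood at 130.2, 174 and 168 CPM with vehicle and at 306, 230 and 254 with esculetin (log2 fold change 0.74, unadjusted p = 0.000266, adjusted p = 0.132). The groups of Rps27a did not overlap.

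Of 10 genes for interferon signalling and antigen presentation, 4 were among the 8, a criterion met by 6.53% of all genes. Tapbp, which encodes tapasin of the peptide loading complex, was at 62.6 ± 2.84 CPM with vehicle and 78.1 ± 4.95 with esculetin (log2 fold change 0.32, unadjusted p = 0.00242 from edgeR, n = 3 libraries). The light chain gene of MHC class I, B2m, and its heavy chain genes H2-K1 and H2-D1 had log2 fold changes of 0.19, 0.18 and 0.18 (unadjusted p = 0.0408, 0.0327 and 0.0480). The transcription factors Irf1 and Nlrc5, through which interferon induces immunoproteasome genes, had log2 fold changes of -0.15 and -0.12, with groups that overlapped. H2-K1 and H2-D1 belong to a family of similar genes, and how reads shared between them were counted is not given in the sources used here.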

How the data were processed

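Liver RNA-seq libraries of vehicle-treated (n = 3) and esculetin-treated (n = 3) HFD-fed mice were used, grouped by their labels. The authors aligned reads to GRCm39 with HISAT2 2.2.1 and used featureCounts to obtain the deposited values, which are raw counts without normalization. The submitters' processing notes also list mm10. The annotation release, strandedness and handling of multi-mapping reads are not given in the sources used here. Symbols, lengths and starts were taken from GENCODE on GRCm39, which held 54749 of the 55357 identifiers.

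Counts were filtered with filterByExpr, normalized with TMM (factors 0.979 to 1.02) and tested with edgeR 4.0.16 (quasi-likelihood test, R 4.3.3), with Benjamini-Hochberg adjustment over 14433 genes. The study's methods name limma, which was an alternative here (limma-voom, limma 3.58.1). Other alternatives were the Wald test of DESeq2 1.42.0, scaling by total counts or by DESeq2 size factors, a filter of 10 counts in all libraries or none, leaving out 1 library at a time, and the replicate number as a block. A spline correction for transcript length and GC content, each with 5 degrees of freedom, and the union exon length were added after seeing the data.

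The members and lists were chosen with earlier results of these data known. Members named singly were those with an unadjusted p under 0.05, the catalytic beta and Psme subunits, the smallest p of each role group, the highest and lowest level per length of core and cap, and members removed by the filter. Psma1, Psma2, Psmd2, Psmd6, Psmd10, Psme2b, Emc9 and the genes holding the motif were named after their values were seen. Some genes of the related lists are not reported here by name. No replicate was a copy of another of its group, since the chi-square per gene between replicates was at least 26.6 and sampling noise alone would put it near 1. Same-numbered libraries did not deviate together (correlations -0.0689, -0.0108 and 0.00274), so the numbers were not read as pairs.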

Additional observations from a re-analysis of the deposited data

How the results depend on the processing

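Over 9 alternative fits with all 6 libraries and 6 fits that each left out 1 library, 4 of 315 values of the 21 members named by rule changed sign. These were Psmc3 (-0.01) and Psmd14 (0.00) without vehicle replicate 1, and Psme4 after the correction for transcript length and GC content (0.02) and after the same with the replicate block (0.02), all of them within their standard errors of 0. When 1 library was left out, Psmc3 ranged from -0.01 to 0.08 and Psmd14 from -0.10 to 0.00. The number of members with an adjusted p under 0.05 was 0 in edgeR's main test and 1 (Psme1) with DESeq2 and with no filter, where 193 of 14433 and 477 of 24638 genes passed in place of 6 of 14433. The median log2 fold change of 0.05 was 0.02 with total counts, 0.02 after the correction and 0.02 after the correction with the block, and ranged from 0.04 to 0.07 when 1 library was left out. The count of 5 members with an unadjusted p under 0.05 and a higher level ranged from 3 to 5, with 3 (Psma7, Psmb8 and Psme1) without vehicle replicate 1, and was 3 after the correction with the block. The genes behind this count differed, since after the correction alone Psma3 and Psmb1 stood in place of Psma7 and Psmb5, and without esculetin replicate 2 Psma4 stood in place of Psmb5. The count of 1 lower member ranged from 1 to 2, with Psmd1 added without esculetin replicate 2. Psme1, Psmb8 and Psma8 had an unadjusted p under 0.05 in all 15 alternatives. With the replicate number as a block, the counts were 5 higher, 1 lower and 0 adjusted, with the same 6 genes and a median of 0.05.

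The cause of these shifts was not tested. With 3 libraries against 3, an exact permutation test of 1 gene cannot give a p below 0.1. The depth limits Psma8 and Psmb11, and 22 members share exon bases with another gene, mostly on the opposite strand, so their values can depend on how shared reads were counted.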

Other observations

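The CCAAT box, searched as CCAAT on either strand in the same 250 bases upstream of the start, was present in 18 of 44 member promoters (40.9%) and in 36.5% of 21627 protein-coding promoters. Among the 12590 promoters of tested genes, the share was 36.1%. With the length of all annotated exons in place of the canonical transcript, the constitutive core subunits ranged from 4.77 to 49.1 CPM per kb with vehicle and the cap subunits from 6.15 (Psmd14) to 40.7 (Psmc1). The fold range of the cap was then 6.62 in place of 2.92, and that of the core 10.3 in place of 9.46. The immunoproteasome subunits and their constitutive counterparts are less alike than the Psme2 pair, with 66.8% to 70.9% identity over their best local alignment and identical runs of at most 18 bases.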
